A study of Mus musculus with 24 samples.

Results

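The genes of glycolysis, of the pentose phosphate pathway and of the step that carries pyruvate into mitochondria were followed in conventional dendritic cells (cDC) sorted from mouse spleen. The set holds 32 genes, and a gene belongs to it by its place in these pathways, with no threshold on its values. Each gene was read from the probe set whose only gene symbol is that gene, or from the one with the highest mean over the 24 arrays if there were several. Of the 32 genes, 29 had such a probe set, and 26 of these were bright enough to be tested among 11228 genes in all. Gpi1, Eno1 and G6pdx had no probe set with a single symbol and were not analysed here. Pfkm, Ldhb and Slc16a1 lay below the median of every array and were not tested.

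Female mice of 8 to 10 weeks, NOD/ShiLt or C57BL/6 (B6), received CpG-A or PBS, and CD11c+ cells were sorted 12 h later from collagenase-treated spleen as CD8+ cDC or CD11b+ cDC. NOD mice develop autoimmune diabetes, B6 mice are the controls, and CpG-A is a DNA oligonucleotide that Toll-like receptor 9 recognises. Strain, subset and injection make 8 groups of 3 arrays: B6 CD8+, NOD CD8+, B6 CD11b+ and NOD CD11b+ cDC, each after PBS and after CpG-A. For each array 5 ng of total RNA was amplified and 2.5 µg of cDNA labelled. Nothing in the labels ties the 3 replicates of a group to separate animals, so the spread behind every p-value is that between the deposited samples and may be technical. Sorted cells are bulk samples, in which fewer cells of a type and less RNA per cell cannot be told apart.

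Glycolysis takes up glucose, traps it as glucose 6-phosphate and splits it into pyruvate, which either becomes lactate and leaves the cell or enters mitochondria through the pyruvate dehydrogenase complex. The pentose phosphate pathway branches off at glucose 6-phosphate and supplies NADPH and ribose. Toll-like receptor signalling is known to raise glycolytic flux in dendritic cells, and the transcription factor HIF-1 drives many of these genes when oxygen is low.

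All values are log2 expression values, and a value or difference of 1 is a 2-fold step. Differences are given ± the standard error from limma with n = 3 arrays per group. A gene is said to have risen, fallen or differed only where limma's adjusted p (Benjamini-Hochberg over all 11228 genes) was under 0.05. Levels are compared between groups for one gene, never between genes.

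The subset labels were met by the subset markers. Cd8a ranged from 10.99 to 11.71 in the 4 groups of CD8+ cDC and from 5.04 to 8.81 in CD11b+ cDC, and Itgam, which encodes CD11b, from 4.45 to 5.39 and from 6.61 to 9.03. Longer marker lists read lower after CpG in their own subset. In B6 CD8+ cDC the mean over 8 CD8+ cDC markers was 10.36 to 10.49 after PBS and 8.71 to 9.17 after CpG. In NOD CD8+ cDC it was 10.50 to 10.58 and 9.19 to 10.18. The mean over 8 CD11b+ cDC markers was 9.16 to 9.18 and 7.70 to 7.97 in B6 CD11b+ cDC. In NOD CD11b+ cDC it was 9.20 to 9.27 and 8.38 to 8.60. Their part in the changes of the set was not tested. Itgax, the gene of CD11c, read 10.30 to 11.32 after PBS and 8.34 to 10.92 after CpG, with every CpG array below the PBS arrays of its kind. Among the groups, CpG-treated NOD CD8+ cDC were the most spread, with a mean correlation to their own group of 0.961 against 0.9815 to 0.9872 in the other 7. Replicate 1 of that group stood apart for the genes described here: relative to the mean of the PBS arrays, the median change of the 26 genes was -0.46 on replicate 1, against -0.06 and 0.00 on replicates 2 and 3. Over all tested genes the median change was -0.14, -0.07 and -0.04, and the array's median over them 6.91, 7.12 and 7.17. Results that rest on this array are given with and without it. It was singled out from these same values, so fits without it are descriptive. Natural killer (NK) cell genes were high in 1 group: the mean over 12 NK markers was 9.19 to 10.32 on the arrays of CpG-treated B6 CD11b+ cDC, 6.04 to 6.92 in B6 CD11b+ cDC after PBS, and 5.11 to 6.51 in the other 6 groups.

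CpG changed this set in both directions in every kind of cDC, and more genes fell than rose in all but NOD CD11b+ cDC. In B6 CD8+ cDC 20 of the 26 genes changed, 6 upward and 14 downward, where 57.7% of all genes tested were called, 21.1% upward and 36.6% downward. In NOD CD8+ cDC 11 changed, 4 up and 7 down, beside 40.7% of all genes (15.1% up, 25.5% down). In B6 CD11b+ cDC 11 changed, again 4 up and 7 down, beside 38.9% (15.9% up, 23% down). In NOD CD11b+ cDC 9 changed, 5 up and 4 down, beside 15.4% (9.7% up, 5.73% down). The share in NOD CD8+ and B6 CD11b+ cDC was 42.3% for the set, close to that of all genes. The median change of the set was -0.44, -0.21, -0.22 and -0.03 in the same order, beside -0.10, -0.08, -0.07 and -0.04 over all genes. The all-gene median moved with the filter on dim genes. Without it the values were 0.069, 0.017, 0.010 and -0.015. Above the array median on at least 12 arrays they were -0.144, -0.111, -0.090 and -0.039. The set was not compared with genes of matched brightness.

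Array scaling bears on these splits. The array median over the genes tested differed between CpG and PBS by -0.25 in B6 CD8+ and -0.15 in NOD CD8+ cDC. In CD11b+ cDC it differed by -0.12 in B6 and -0.02 in NOD. Centring each array on this median raised every CpG difference by as much. With centring the set split into 7 up and 11 down, 5 up and 4 down, 6 up and 5 down, and 6 up and 4 down. The same setting split all 11228 genes into 4033 up and 2778 down, 2370 and 1910, 2309 and 1909, and 1180 and 693. The set's median change was then -0.20, -0.07, -0.10 and -0.01, beside 0.146, 0.062, 0.050 and -0.022 over all genes. Quantile normalization gave 5 up and 2 down in NOD CD11b+ cDC, beside 1053 and 784 of all genes.

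**Figure D1:**
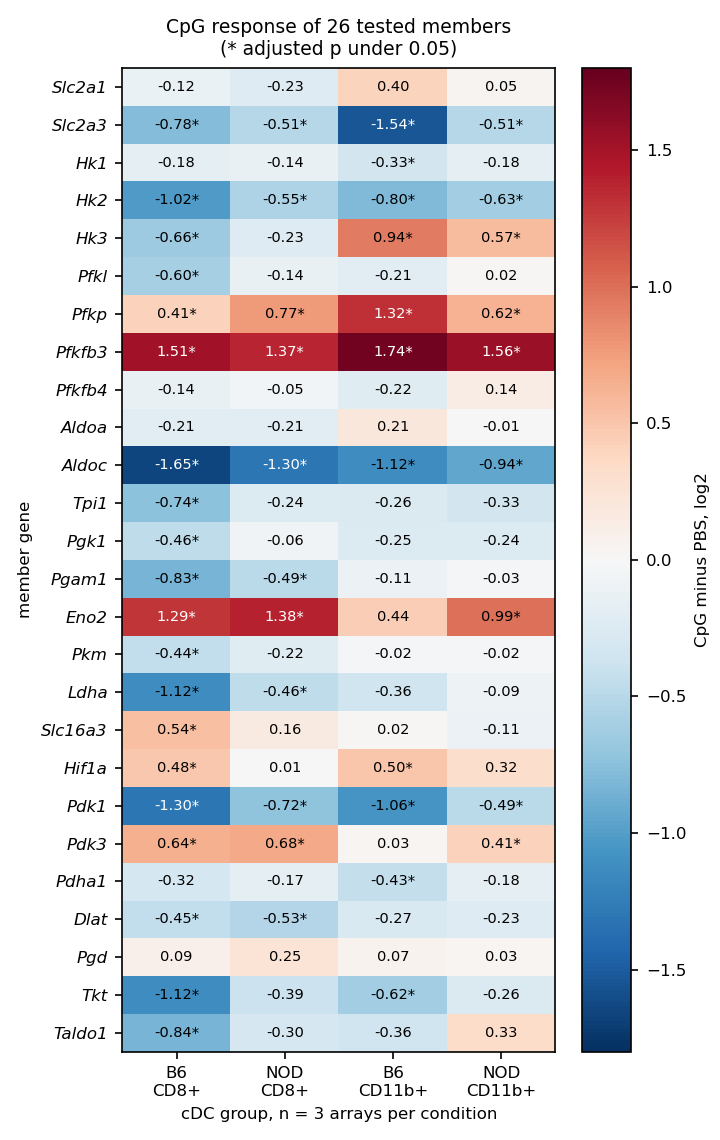
Heat map of the CpG minus PBS difference (log2, colour and number) for the 26 tested genes (vertical axis, in pathway order) in the 4 kinds of cDC (horizontal axis), with an asterisk where limma's adjusted p was under 0.05. Pfkfb3 and Pfkp were higher and Slc2a3, Hk2, Aldoc and Pdk1 lower in all 4 columns, and B6 CD8+ cDC had the most changed genes, 20 of 26.

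Several genes moved the same way throughout the 4 comparisons, which share no arrays. Pfkp and Pfkfb3 rose in all 4, and Eno2 and Pdk3 in 3. Slc2a3, Hk2, Aldoc and Pdk1 fell in all 4. Slc2a1, Pfkfb4, Aldoa and Pgd changed in none, and Hk3 alone was called in both directions. The share of all genes called the same way in 3 or 4 comparisons was not counted, so these counts cannot be set against it.

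The promoters of the genes that moved the same way in at least 3 comparisons are relevant because HIF-1 is a known activator of several of them. RefSeq promoter windows (GRCm38.p6, 250 bases before to 50 after a transcription start) were matched by symbol for 31 of the 32 genes, all but Slc2a3. The windows were searched on both strands for the HIF core ACGTG, the E-box CACGTG, which contains ACGTG, and the interferon element GAAANNGAA. Shown 5′ to 3′ on the strand of the gene is a window with a HIF core from each of 2 genes that rose and 2 that fell, with the core in capitals as it reads on that strand (CACGT is ACGTG on the other strand). They lie at chr2:11553880-11554179 (Pfkfb3, minus strand), chrX:93832101-93832400 (Pdk3, minus), chr6:82774405-82774704 (Hk2, minus) and chr11:78322823-78323122 (Aldoc, plus).
Pfkfb3: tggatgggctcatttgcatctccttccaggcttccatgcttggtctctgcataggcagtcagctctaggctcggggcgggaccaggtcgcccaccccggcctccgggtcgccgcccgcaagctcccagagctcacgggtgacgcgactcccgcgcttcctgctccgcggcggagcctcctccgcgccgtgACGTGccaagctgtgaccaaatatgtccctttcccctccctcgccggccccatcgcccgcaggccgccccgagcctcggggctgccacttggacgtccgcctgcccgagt
Pdk3: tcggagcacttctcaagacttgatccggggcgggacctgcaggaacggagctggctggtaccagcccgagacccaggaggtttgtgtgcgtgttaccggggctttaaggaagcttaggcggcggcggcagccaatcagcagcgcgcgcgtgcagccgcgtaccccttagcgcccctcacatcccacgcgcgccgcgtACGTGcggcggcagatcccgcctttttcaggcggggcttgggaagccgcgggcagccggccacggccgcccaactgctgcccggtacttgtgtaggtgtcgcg
Hk2: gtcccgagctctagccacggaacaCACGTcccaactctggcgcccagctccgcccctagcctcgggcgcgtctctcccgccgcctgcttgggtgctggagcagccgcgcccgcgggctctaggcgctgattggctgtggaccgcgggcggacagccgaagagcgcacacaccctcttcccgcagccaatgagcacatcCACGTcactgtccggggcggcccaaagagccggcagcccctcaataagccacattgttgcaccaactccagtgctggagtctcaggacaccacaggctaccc
Aldoc: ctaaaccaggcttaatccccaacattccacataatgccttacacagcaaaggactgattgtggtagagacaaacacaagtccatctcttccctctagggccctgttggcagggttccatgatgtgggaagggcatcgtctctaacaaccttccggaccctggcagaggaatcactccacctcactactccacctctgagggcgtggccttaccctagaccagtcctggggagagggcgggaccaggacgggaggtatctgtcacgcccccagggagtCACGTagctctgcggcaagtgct

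The HIF core was present in genes that rose and in genes that fell. It was found in a window of 2 of the 4 genes that rose (Pfkfb3 and Pdk3, not Pfkp or Eno2) and in 2 of the 3 that fell (Hk2 and Aldoc, not Pdk1). Over the whole set, 17 of 31 genes with a window held it, against 21.8% of 27025 genes with a window. Among genes tested on the arrays the counts were 14 of 25 for the set and 28.9% of 9006 in all. Ldha, which fell in CD8+ cDC, held 5 matches in one window, and the window of Hif1a held 3. An E-box reads ACGTG on both strands and is counted on each, so these are not all separate sites. The Ldha window held 2 E-boxes and that of Hif1a held 1. The E-box was found in 5 of 31 genes (8.09% of all genes), and the interferon element in 1, Pgk1 (9.76% of all genes). These matches are descriptions of letters in a window, and no match says only that the letters are not in it.

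At the entry of glucose, the transporter gene Slc2a3 and the hexokinase gene Hk2 fell in all 4 comparisons, and the other 3 genes did not. Slc2a3 encodes the high-affinity glucose transporter GLUT3. In CD8+ cDC it read 6.63, 6.89 and 6.49 after PBS and 5.77, 5.83 and 6.08 after CpG in B6, and 7.02, 6.66 and 6.99 against 6.13, 6.44 and 6.58 in NOD. In CD11b+ cDC it read 8.42, 8.52 and 8.32 after PBS and 6.65, 6.95 and 7.04 after CpG in B6, and 8.62, 8.50 and 8.46 against 7.84, 8.26 and 7.94 in NOD. All CpG arrays lay below all PBS arrays of their kind, and the gap was widest in B6 CD11b+ cDC. Slc2a3 fell by 0.78 ± 0.15 (B6 CD8+), 0.51 ± 0.15 (NOD CD8+), 1.54 ± 0.15 (B6 CD11b+, 2.92-fold) and 0.51 ± 0.15 (NOD CD11b+), with limma adjusted p = 9.71e-05, 0.00828, 1.5e-08 and 0.0182. The call in NOD CD8+ cDC ended without CpG replicate 1 (-0.38, adjusted p = 0.0658) and in a fit of those 2 groups alone (0.0579). In NOD CD11b+ cDC it ended without PBS replicate 1 (-0.46, 0.0746), CpG replicate 1 (-0.42, 0.121) or CpG replicate 3 (-0.47, 0.0565).

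Slc2a1, which encodes the widely expressed transporter GLUT1, changed in none of the 4 comparisons (adjusted p = 0.109 to 0.912). Its largest difference was 0.40 ± 0.19 in B6 CD11b+ cDC, where the arrays read 7.37, 7.46 and 7.52 after PBS and 7.72, 7.98 and 7.84 after CpG. These 2 groups did not overlap, and the call passed with the replicate number as a block (adjusted p = 0.0309). No source says what a number marks, and same-numbered arrays did not all deviate together in that comparison.

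Hexokinases phosphorylate glucose, and their 3 genes behaved differently. Hk2, the inducible isozyme, read 7.26, 7.28 and 7.34 after PBS and 6.06, 6.08 and 6.66 after CpG in B6 CD8+ cDC, and 7.46, 7.38 and 7.70 against 6.49, 6.76 and 6.89 in B6 CD11b+ cDC. In NOD it read 6.69, 6.69 and 7.14 after PBS and 5.77, 6.40 and 6.69 after CpG in CD8+ cDC, and 7.24, 7.26 and 7.37 against 6.61, 6.46 and 6.89 in CD11b+ cDC. Only in NOD CD8+ cDC did the arrays of PBS and CpG meet. The falls were by 1.02 ± 0.19 (B6 CD8+), 0.55 ± 0.19 (NOD CD8+), 0.80 ± 0.19 (B6 CD11b+) and 0.63 ± 0.19 (NOD CD11b+), with adjusted p = 9.2e-05, 0.0256, 0.00196 and 0.0255. The call in NOD CD8+ cDC ended under quantile normalization and median centring, without CpG replicate 1 (-0.29, adjusted p = 0.236) and without PBS replicate 3 (-0.40, 0.147). In NOD CD11b+ cDC it ended under quantile normalization and without any 1 of the 3 PBS arrays or CpG replicates 1 and 2 (-0.66 to -0.54, adjusted p = 0.0523 to 0.122).

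Hk3, an isozyme typical of myeloid cells, went down in one subset and up in the other. In B6 CD8+ cDC it read 7.58, 7.34 and 7.73 after PBS and 7.01, 6.77 and 6.88 after CpG. In B6 CD11b+ cDC it read 5.37, 6.03 and 5.67 after PBS and 6.63, 6.63 and 6.64 after CpG. Neither pair of groups overlapped, and after CpG the subsets lay closer together than after PBS. Hk3 fell by 0.66 ± 0.17 in B6 CD8+ cDC (adjusted p = 0.00211) and rose by 0.94 ± 0.17 in B6 CD11b+ cDC (0.000121). In NOD CD11b+ cDC it rose by 0.57 ± 0.17 (0.023), from 5.82, 5.67 and 5.89 to 6.57, 6.43 and 6.10, and in NOD CD8+ cDC it read -0.23 ± 0.17 (0.308). The call in NOD CD11b+ cDC ended without PBS replicate 1 or 2 or CpG replicate 1 or 2 (0.47 to 0.59, adjusted p = 0.0518 to 0.139). The difference between the subsets' responses was itself called in B6 (-1.61 ± 0.24, 8.92e-05) and in NOD (-0.80 ± 0.24, 0.0482), the latter lost under 5 of the other settings.

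For Hk1, the housekeeping hexokinase, the direction depended on the probe set. The brighter of its 2 single-symbol probe sets, which the rule picks, has 1 accession in the platform annotation and no RefSeq transcript. Its CpG difference was -0.33 ± 0.11 in B6 CD11b+ cDC (adjusted p = 0.0183), a call that ended without PBS replicate 2 or 3 or CpG replicate 1 or 3 (-0.30 to -0.27, 0.0604 to 0.0863), and it was not called in the other 3 (-0.18 to -0.14). The dimmer one is annotated with 4 RefSeq transcripts and was above the array median on all 24 arrays. In B6 CD8+ cDC it read 6.44, 6.28 and 6.26 after PBS and 7.10, 7.56 and 7.43 after CpG, and in B6 CD11b+ cDC 7.13, 6.86 and 6.98 against 8.23, 8.15 and 8.37. In NOD it read 6.66, 6.61 and 6.63 after PBS and 6.93, 7.19 and 6.75 after CpG in CD8+ cDC, and 6.93, 6.86 and 6.98 against 8.02, 8.12 and 7.65 in CD11b+ cDC. All CpG arrays were above all PBS arrays of their kind. The differences were 1.04 ± 0.13 (8.5e-07), 1.26 ± 0.13 (9.69e-08) and 1.01 ± 0.13 (6.34e-06) in B6 CD8+, B6 CD11b+ and NOD CD11b+ cDC, and 0.32 ± 0.13 (0.0603) in NOD CD8+ cDC.

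A further 16 probe sets list Hk1 together with Rpl17, a ribosomal protein gene, and were not used. Their means over the arrays were 10.99 to 12.22, and their CpG differences ran from -0.43 to -0.22 in B6 CD8+ and from -0.49 to -0.27 in B6 CD11b+ cDC, the same sign as the brighter Hk1 probe set and the opposite of the dimmer one. No direction is therefore given for Hk1, and it is counted above as the rule selects it.

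**Figure D2:**
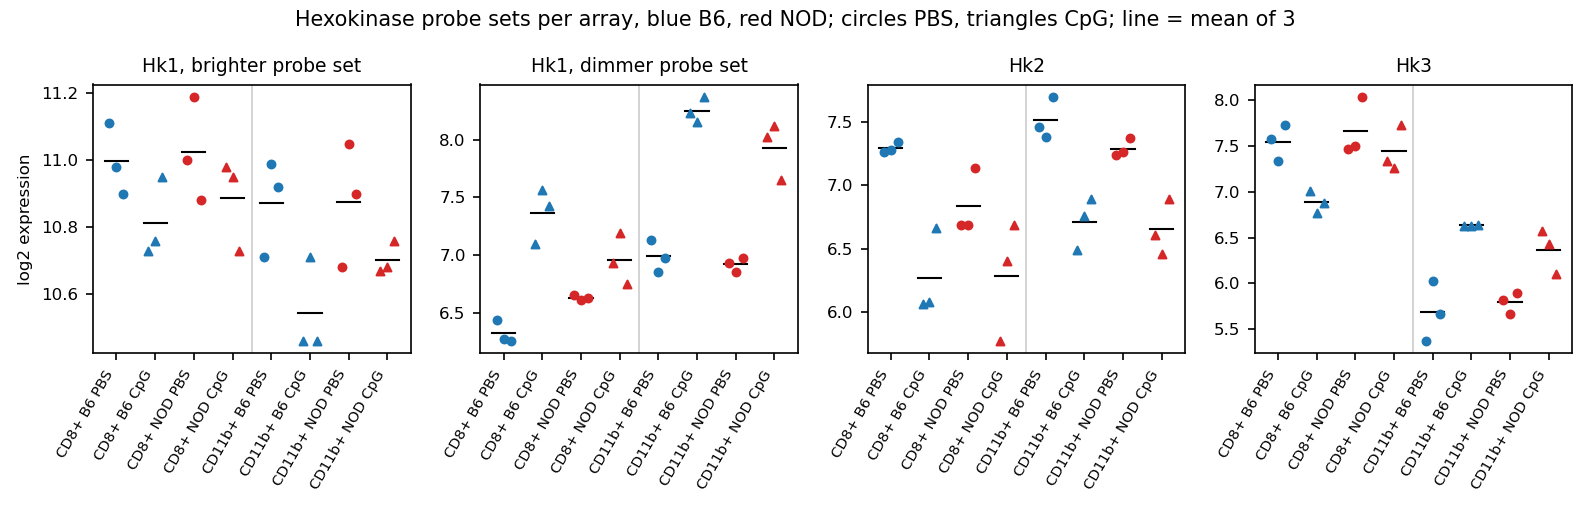
Log2 expression per array (vertical axes, scaled separately) of both Hk1 probe sets, Hk2 and Hk3 in the 8 groups (horizontal axes; circles PBS, triangles CpG, blue B6, red NOD, lines group means of 3 arrays). The dimmer Hk1 probe set was called higher after CpG in every kind of cell but NOD CD8+ cDC, and the brighter one in none. Hk3 fell in B6 CD8+ and rose in B6 CD11b+ cDC.

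In upper glycolysis Pfkfb3 rose in all 4 kinds of cell; its product makes fructose 2,6-bisphosphate, the activator of phosphofructokinase. In CD8+ cDC Pfkfb3 read 10.52, 10.35 and 10.00 after PBS and 11.94, 11.79 and 11.67 after CpG in B6, and 10.62, 9.94 and 9.99 against 11.99, 11.32 and 11.35 in NOD. In CD11b+ cDC it read 9.80, 9.25 and 9.75 after PBS and 11.45, 11.15 and 11.41 after CpG in B6, and 9.12, 8.81 and 9.24 against 10.91, 10.46 and 10.48 in NOD. The groups were apart in all 4 kinds of cell. The rises were 1.51 ± 0.20, 1.37 ± 0.20, 1.74 ± 0.20 and 1.56 ± 0.20 in B6 CD8+, NOD CD8+, B6 CD11b+ and NOD CD11b+ cDC (2.58-fold to 3.33-fold, adjusted p = 2.57e-07 to 9.45e-06), and each passed without any 1 array. Neither the strains nor the subsets differed in this response by a test of the difference (adjusted p = 0.665 to 0.831). Pfkfb4, the gene of a related bifunctional enzyme, changed in none (-0.22 to 0.14).

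Of the phosphofructokinase genes, which encode the rate-controlling enzyme of glycolysis, the platelet-type Pfkp rose and the liver-type Pfkl did not. Pfkp read 8.51, 8.40 and 8.37 after PBS and 8.75, 8.92 and 8.83 after CpG in B6 CD8+ cDC, and 7.53, 7.52 and 7.76 against 8.02, 8.55 and 8.56 in NOD CD8+ cDC. In B6 CD11b+ cDC it read 7.03, 7.05 and 7.25 after PBS and 8.41, 8.73 and 8.16 after CpG, and in NOD CD11b+ cDC 6.20, 5.68 and 6.39 against 6.73, 6.78 and 6.62. No groups overlapped. The rises were 0.41 ± 0.16 (adjusted p = 0.0383), 0.77 ± 0.16 (0.000731), 1.32 ± 0.16 (9.09e-07) and 0.62 ± 0.16 (0.0102) in that order. The smallest, in B6 CD8+ cDC, did not pass with dim genes included (0.0555) or without PBS replicate 2 or 3 or CpG replicate 2 or 3 (0.36 to 0.41, adjusted p = 0.0693 to 0.108), and in NOD CD11b+ cDC the call ended without PBS replicate 2 (0.42, 0.102). Pfkl fell in B6 CD8+ cDC by 0.60 ± 0.15 (0.00171), from 7.05, 6.83 and 6.80 to 6.33, 5.97 and 6.57, and was not called in the other 3 (-0.21 to 0.02). Pfkm, the muscle type, read 5.07 to 5.64 on all arrays and was not tested.

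Aldolases split fructose 1,6-bisphosphate, and the 2 genes measured differed. Aldoc read 6.94, 7.03 and 7.45 after PBS and 5.59, 5.25 and 5.62 after CpG in B6 CD8+ cDC, and 6.99, 7.14 and 7.52 against 5.16, 6.27 and 6.33 in NOD CD8+ cDC. CD11b+ cDC gave 6.35, 6.00 and 6.39 against 5.38, 4.78 and 5.20 in B6, and 6.35, 5.99 and 6.06 against 5.15, 5.00 and 5.42 in NOD. CpG arrays lay below PBS arrays throughout. Aldoc fell by 1.65 ± 0.24 (3.14-fold), 1.30 ± 0.24, 1.12 ± 0.24 and 0.94 ± 0.24 in B6 CD8+, NOD CD8+, B6 CD11b+ and NOD CD11b+ cDC (adjusted p = 3.47e-06, 0.000153, 0.000601 and 0.00695), and each call held without any 1 array. Aldoa, the main isozyme of most tissues, was not called in any comparison (-0.21 to 0.21). Tpi1, the triose phosphate isomerase gene, fell in B6 CD8+ cDC by 0.74 ± 0.16 (0.000494), from 8.63, 8.61 and 8.64 to 7.80, 7.86 and 7.99, and read -0.33 to -0.24 in the other 3, where it did not pass.

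**Figure D3:**
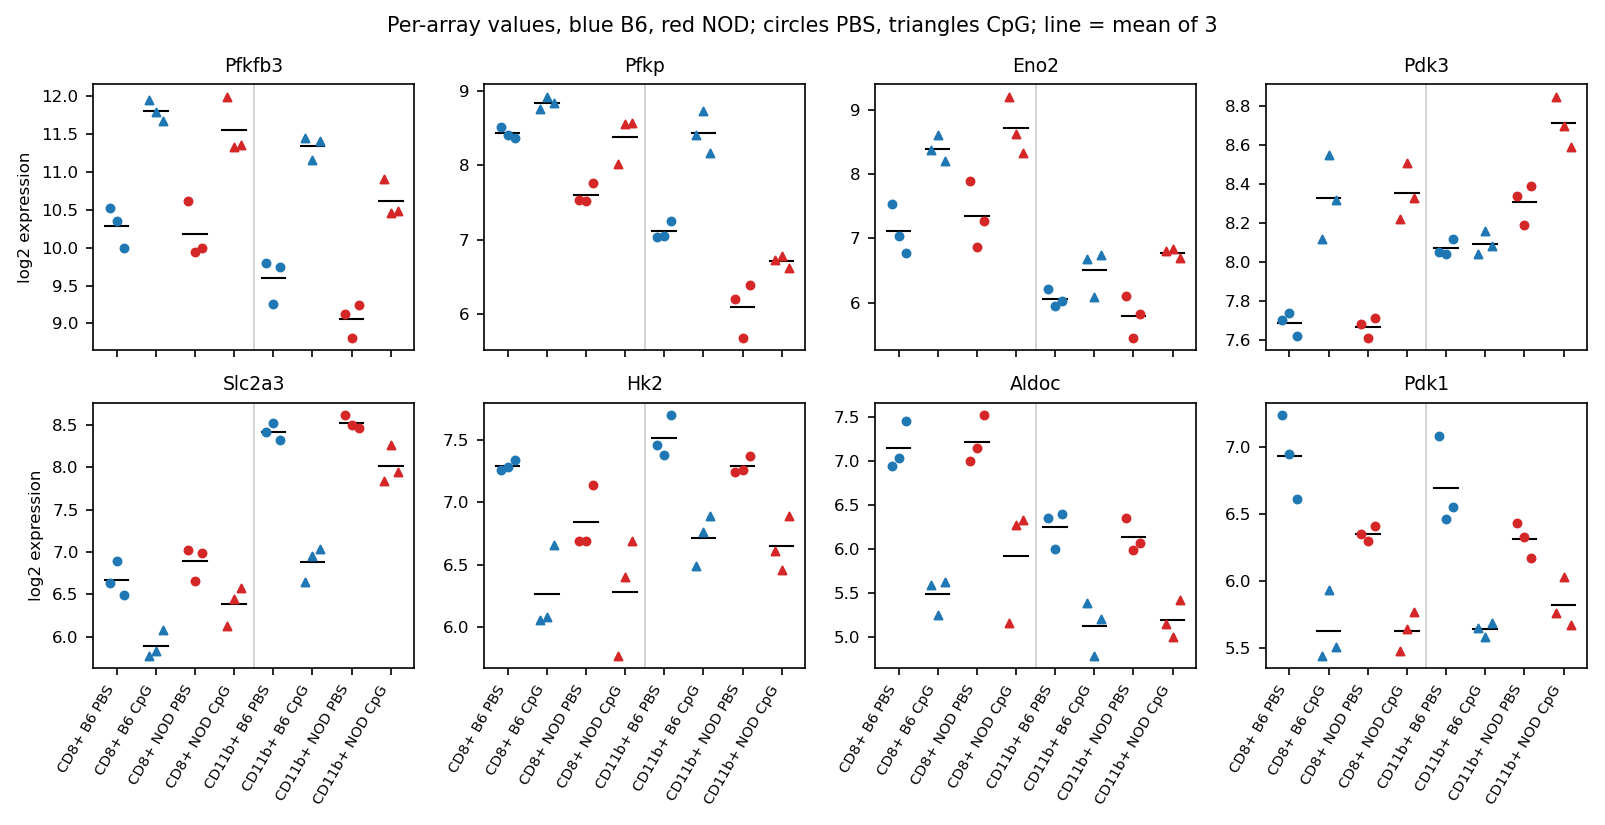
Log2 expression per array (vertical axes, scaled separately) of the 8 genes called in the same direction in at least 3 of the 4 CpG comparisons, in the 8 groups (horizontal axes; circles PBS, triangles CpG, blue B6, red NOD, lines group means of 3 arrays). The upper row holds the genes that rose and the lower row those that fell; NOD CD11b+ cDC had the lowest Pfkp values, 5.68 to 6.78.

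In lower glycolysis the enolase gene Eno2 rose while its neighbours in the pathway fell or were not called. Eno2 encodes the gamma enolase known from neurons. It read 7.53, 7.03 and 6.78 after PBS and 8.38, 8.61 and 8.21 after CpG in B6 CD8+ cDC, and 7.89, 6.87 and 7.27 against 9.21, 8.63 and 8.33 in NOD CD8+ cDC. In CD11b+ cDC it read 6.21, 5.94 and 6.02 against 6.68, 6.09 and 6.74 in B6, and 6.11, 5.45 and 5.82 against 6.80, 6.83 and 6.70 in NOD. The groups overlapped in B6 CD11b+ cDC alone. Eno2 rose by 1.29 ± 0.24 (adjusted p = 0.000101), 1.38 ± 0.24 (0.000105) and 0.99 ± 0.24 (0.006) in B6 CD8+, NOD CD8+ and NOD CD11b+ cDC, and read 0.44 ± 0.24 (0.159) in B6 CD11b+ cDC. Eno1, the main enolase gene of most cells, was not analysed here, so the total enolase transcript is unknown.

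Pgk1, Pgam1 and Pkm, which encode the kinase, the mutase and the pyruvate kinase around enolase, fell in B6 CD8+ cDC by 0.46 ± 0.16 (adjusted p = 0.0166), 0.83 ± 0.19 (0.000793) and 0.44 ± 0.11 (0.00164). Pgam1 read 8.75, 8.71 and 8.76 after PBS and 7.62, 7.89 and 8.22 after CpG there. None of the 3 was called in either kind of CD11b+ cDC (-0.25 to -0.02). Under median centring Pgk1 (0.144) and Pkm (0.0605) did not pass in B6 CD8+ cDC, and Pgk1 also did not without PBS replicate 3 (-0.41, 0.0599) or CpG replicate 1 (-0.36, 0.0926). In NOD CD8+ cDC Pgam1 was lower by 0.49 ± 0.19 (0.0459), with replicate 1 at 7.48 beside 8.35 and 8.52, and without that array read -0.17 (0.455); leaving out any of 14 of the 24 arrays ended the call (0.0506 to 0.455). Pgk1, Pgam1 and Pkm each have more than 1 single-symbol probe set, with near-equal responses. For Pgk1 and Pgam1 the picked probe set and another read the same on every array, so that agreement is not independent. Near-identical pseudogene copies of the 3 genes can share their probes, so a part of these signals may not be from the named gene.

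Of the 2 lactate genes tested, Ldha fell in CD8+ cDC and Slc16a3 rose in B6 CD8+ cDC. Ldha, whose enzyme converts pyruvate to lactate, read 9.66, 9.68 and 9.55 after PBS and 8.36, 8.44 and 8.73 after CpG in B6 CD8+ cDC. In NOD CD8+ cDC it read 9.26, 9.56 and 9.64 after PBS and 8.45, 9.22 and 9.42 after CpG. The B6 groups were clearly apart, while the NOD groups overlapped on 1 CpG array. Ldha fell by 1.12 ± 0.16 (2.17-fold, adjusted p = 3.65e-06) in B6 and by 0.46 ± 0.16 (0.0276) in NOD CD8+ cDC. The NOD call ended without CpG replicate 1 (-0.17, 0.312), without PBS replicate 2 (-0.42, 0.0817) or 3 (-0.38, 0.114), under median centring and in a fit of those 2 groups alone. In CD11b+ cDC Ldha did not pass (-0.36 ± 0.16 in B6, -0.09 ± 0.16 in NOD). Slc16a3, which encodes the lactate exporter MCT4, rose in B6 CD8+ cDC alone among the 4 by 0.54 ± 0.12 (0.000544), from 6.35, 6.44 and 6.34 to 6.85, 7.04 and 6.85. Slc16a1, the gene of the transporter MCT1, and Ldhb read 3.76 to 5.54 and were not tested.

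Around pyruvate entry, the kinase genes Pdk1 and Pdk3 moved in opposite directions, although both enzymes inhibit pyruvate dehydrogenase. Pdk1 read 7.24, 6.95 and 6.61 after PBS and 5.44, 5.93 and 5.51 after CpG in B6 CD8+ cDC, and 6.35, 6.30 and 6.41 against 5.48, 5.64 and 5.77 in NOD CD8+ cDC. CD11b+ cDC gave 7.08, 6.46 and 6.55 against 5.65, 5.58 and 5.69 in B6, and 6.43, 6.33 and 6.17 against 5.76, 6.03 and 5.67 in NOD. All CpG arrays were below all PBS arrays of their kind. Pdk1 fell by 1.30 ± 0.17 (adjusted p = 6.35e-07), 0.72 ± 0.17 (0.0014), 1.06 ± 0.17 (2.02e-05) and 0.49 ± 0.17 (0.0461) in B6 CD8+, NOD CD8+, B6 CD11b+ and NOD CD11b+ cDC. The last ended with dim genes included, under quantile normalization, and on leaving out any of 14 of the 24 arrays, with adjusted p = 0.0503 to 0.157.

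Pdk3 read 7.70, 7.74 and 7.62 after PBS and 8.12, 8.55 and 8.32 after CpG in B6 CD8+ cDC, and 7.68, 7.61 and 7.71 against 8.22, 8.51 and 8.33 in NOD CD8+ cDC. In B6 CD11b+ cDC it read 8.05, 8.04 and 8.12 against 8.04, 8.16 and 8.08, and in NOD CD11b+ cDC 8.34, 8.19 and 8.39 against 8.85, 8.70 and 8.59. The B6 CD11b+ groups overlapped and the other 3 pairs did not. Pdk3 rose by 0.64 ± 0.11 (2.67e-05), 0.68 ± 0.11 (2.97e-05) and 0.41 ± 0.11 (0.0111) in B6 CD8+, NOD CD8+ and NOD CD11b+ cDC, and read 0.03 ± 0.11 in B6 CD11b+ cDC (0.863). In NOD CD11b+ cDC the call ended without PBS replicate 2 (0.35, 0.066) or CpG replicate 1 (0.34, 0.0855).

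Subunit genes of the pyruvate dehydrogenase complex fell in places. Dlat, the acetyltransferase subunit, fell in CD8+ cDC by 0.45 ± 0.14 in B6 (adjusted p = 0.00999) and 0.53 ± 0.14 in NOD (0.00488), and Pdha1, the E1 alpha subunit, by 0.43 ± 0.16 in B6 CD11b+ cDC (0.0369). Dlat did not pass in B6 under median centring (0.206) or without CpG replicate 2 (-0.33, 0.0716). Pdha1 did not pass with dim genes included, under quantile normalization or median centring, or without PBS replicate 2 or 3 or CpG replicate 1 or 3 (-0.45 to -0.35, adjusted p = 0.0662 to 0.137). Hif1a, the gene of the regulated HIF-1 subunit, read 8.07, 8.11 and 8.12 after PBS and 8.44, 8.70 and 8.59 after CpG in B6 CD8+ cDC, and 8.17, 8.19 and 8.24 against 8.65, 8.93 and 8.53 in B6 CD11b+ cDC. It rose by 0.48 ± 0.11 (0.000695) and 0.50 ± 0.11 (0.000801). In NOD it read 0.32 ± 0.11 in CD11b+ cDC (0.0512) and 0.01 ± 0.11 in CD8+ cDC (0.969). The CD11b+ value passed with the replicate number as a block (0.0298). Same-numbered arrays deviated together there, with correlations of 0.155 to 0.215. HIF-1 is controlled mainly through protein stability, which arrays do not measure.

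In the non-oxidative branch of the pentose phosphate pathway Tkt fell in both kinds of B6 cDC and Taldo1 in B6 CD8+ cDC. Tkt encodes transketolase and Taldo1 transaldolase, which shuttle carbon back to glycolysis. Tkt read 8.96, 9.11 and 9.06 after PBS and 7.66, 7.92 and 8.17 after CpG in B6 CD8+ cDC, and 9.42, 9.28 and 9.25 against 8.61, 8.68 and 8.82 in B6 CD11b+ cDC. Taldo1 read 10.74, 10.80 and 10.87 after PBS and 9.65, 9.94 and 10.28 after CpG in B6 CD8+ cDC. These groups did not overlap. Tkt fell by 1.12 ± 0.19 (2.18-fold, adjusted p = 2.18e-05) and 0.62 ± 0.19 (0.0114), and Taldo1 by 0.84 ± 0.21 (0.00144). Taldo1 was not called in B6 CD11b+ cDC (-0.36 ± 0.21, 0.182). Neither gene was called in NOD cells, where Tkt read -0.39 ± 0.19 and -0.26 ± 0.19, and Taldo1 -0.30 ± 0.21 and 0.33 ± 0.21, in CD8+ and CD11b+ cDC. Pgd, whose enzyme makes NADPH in the oxidative branch, was called in none of the 4 (0.03 to 0.25), but read 0.39 (0.0486) in NOD CD8+ cDC without CpG replicate 1. G6pdx, the first enzyme of that branch, was not analysed here.

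NK cell markers rose with CpG in B6 CD11b+ cDC, 11 of 12 with 1 falling, by a median of 3.50, led by Gzmb (6.50 ± 0.29), Nkg7 (4.10 ± 0.29), Prf1 (3.94 ± 0.22) and Ncr1 (3.57 ± 0.27). In NOD CD11b+ cDC 6 of 12 rose with a median of 0.72, and in CD8+ cDC 4 rose in B6 and 3 in NOD, with 1 falling in each. Of all genes 15.9% rose and 23% fell in B6 CD11b+ cDC, and 9.7% and 5.73% in NOD CD11b+ cDC. In CD8+ cDC 21.1% rose and 36.6% fell in B6, and 15.1% and 25.5% in NOD. In B6 CD11b+ cDC all 12 NK markers were above the array median on all 3 CpG arrays, so none of the defining markers was at background there. Their part in the changes of the set in B6 CD11b+ cDC was not tested. In B6 CD8+ cDC the mean over 9 proliferation markers was 7.54 to 7.81 after PBS and 6.80 to 7.26 after CpG, with 4 of 9 falling. That over 6 markers of plasmacytoid dendritic cells was 7.90 to 8.09 and 6.83 to 7.40, with 3 of 6 falling and 1 rising. These small counts stand beside 36.6% of all genes falling and 21.1% rising. The part of both marker lists in the changes there was not tested.

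Direct tests of whether the subsets responded differently to CpG called 6 genes in B6, 3 in each direction, where 13.4% of all genes were called (5.84% higher and 7.53% lower in CD8+ cDC). In NOD 1 gene was called, beside 6.8% of all genes (2.68% higher, 4.12% lower). By its dimmer probe set, tried after seeing the data, Hk1 was called in NOD as well (-0.68, limma adjusted p = 0.0313). In B6 the response of Hk3 differed by -1.61 ± 0.24, as above. Slc2a3 fell less in CD8+ than in CD11b+ cDC (0.77 ± 0.21, limma adjusted p = 0.0156), Pfkp rose less (-0.92 ± 0.23, 0.0107), and Ldha fell more (-0.76 ± 0.23, 0.0299). Pdk3 (0.61 ± 0.15, 0.00948) and Slc16a3 (0.51 ± 0.17, 0.0468) rose more in CD8+ cDC. The call of Slc2a3 ended without PBS replicate 3 of B6 CD8+ cDC (0.68, 0.0515), that of Ldha without any 1 of 8 arrays (adjusted p = 0.0506 to 0.0785), and that of Slc16a3 without any 1 of 15 (0.0517 to 0.116). Hk3 was the gene called in NOD by the probe sets that the rule picks. That call ended without any 1 of 18 arrays (0.0503 to 0.153), among them CpG replicate 1 of NOD CD8+ cDC (-0.75, 0.105). The responses of all 12 NK markers were lower in CD8+ than in CD11b+ cDC of B6, with a median difference of -2.98, and their part in the B6 differences was not tested.

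The same test between strains called no gene of the set in CD8+ cDC with limma, while 7 of 26 had an unadjusted p under 0.05. The share of all genes under that unadjusted limit was not counted. By adjusted p, 4.02% of all genes were called there (1.74% higher in NOD, 2.28% lower). By its dimmer probe set, tried after seeing the data, Hk1 was called there, with a lower change in NOD (-0.72, adjusted p = 0.034). In CD11b+ cDC the strain test called 1, Slc2a3, beside 4.38% of all genes (2.4% higher, 1.98% lower). Slc2a3 fell less in NOD than in B6 CD11b+ cDC, by 1.03 ± 0.21 (adjusted p = 0.00439), and kept this call without any 1 array. In the same test 9 of 12 NK markers were called, all 9 lower, with a median of -2.19, and their part in the result for Slc2a3 was not tested. In CD8+ cDC the result turned on 1 array, which was singled out from these same values. Leaving out any 1 of the other 23 arrays called no gene of the set. Without CpG replicate 1 of NOD CD8+ cDC, 7 of the 26 genes were called, all 7 with a higher change in NOD than in B6, and 18.4% of all genes. The split of all genes by direction was not counted. The median difference was 0.37 over the set and 0.06 over all genes. The 7 genes were Tkt (1.07, adjusted p = 0.000362), Ldha (0.95, 0.000371), Taldo1 (0.90, 0.0062), Tpi1 (0.74, 0.0103), Hk2 (0.73, 0.0358), Pgam1 (0.66, 0.0265) and Pgk1 (0.59, 0.044). With all 3 arrays these differences were 0.34 to 0.73 and had adjusted p = 0.114 to 0.545.

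The array values show what this rests on. Relative to the PBS mean, replicate 1 of NOD CD8+ cDC had Tkt at -1.08, Ldha at -1.03, Taldo1 at -1.02 and Pgam1 at -1.12. Replicate 2 had them at -0.09, -0.26, -0.07 and -0.25, and replicate 3 at -0.01, -0.07, 0.18 and -0.09. The same changes on the 3 B6 CpG arrays ran from -1.38 to -0.88 for Tkt, -1.27 to -0.90 for Ldha, -1.15 to -0.52 for Taldo1 and -1.12 to -0.52 for Pgam1. Replicate 1 of NOD was within these ranges, with Pgam1 at the lower end, and the other 2 were above them. Replicate 1 had Pfkfb3 at 1.81 and Eno2 at 1.86, the largest changes of the 3 arrays, but Pfkp at 0.42, the smallest. Its mean correlation with the other 2 arrays over all tested genes was 0.95, and theirs were 0.971 and 0.962. Without it, 8 genes of the set were called for CpG in NOD CD8+ cDC, 5 up and 3 down, and the falls of Slc2a3, Hk2, Pgam1 and Ldha no longer passed. Of all genes 29.3% were called, and their split by direction was not counted. The labels give nothing that sets this array apart.

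**Figure D4:**
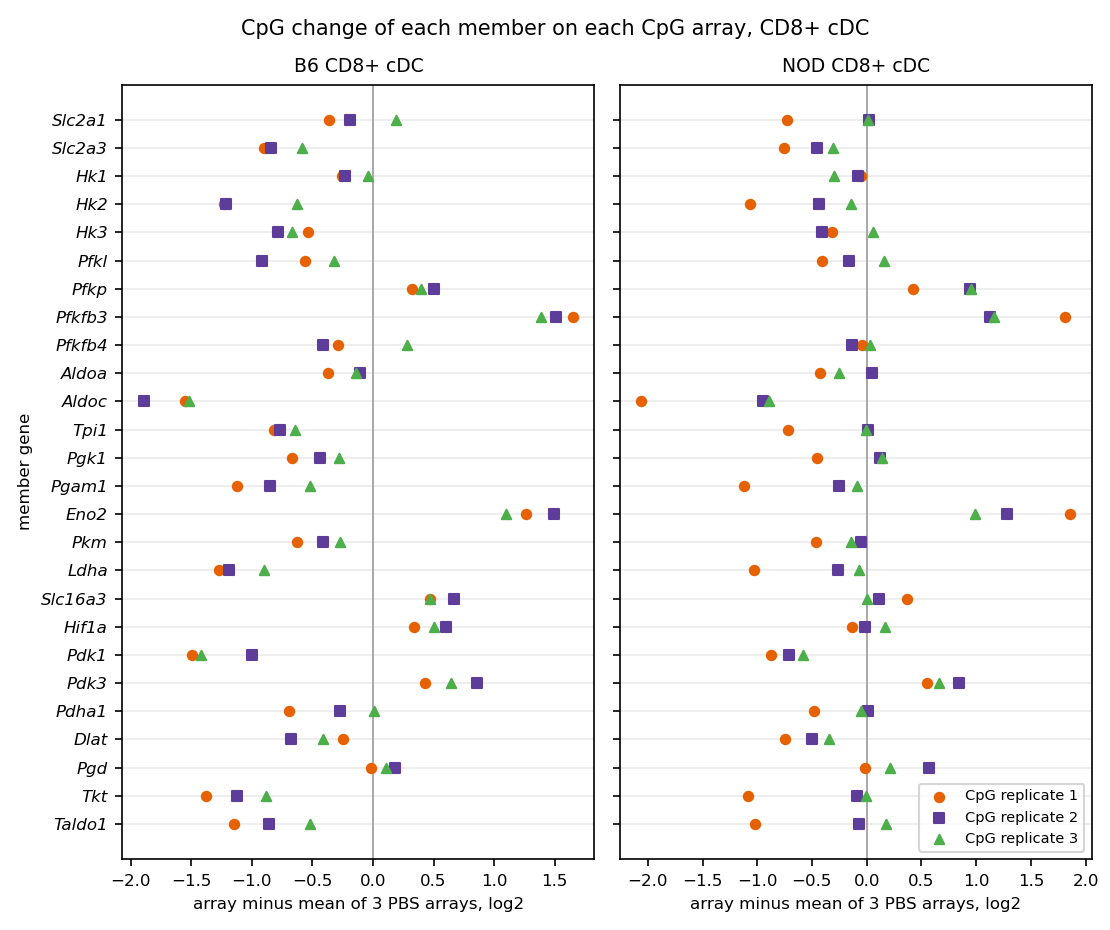
Change of each of the 26 genes (vertical axis) on each CpG array of CD8+ cDC, as the array's log2 value minus the mean of the 3 PBS arrays of its strain (horizontal axis), for B6 (left) and NOD (right). In NOD, replicate 1 (orange circles) lay at -1.12 to -1.02 for Pgam1, Tkt, Ldha and Taldo1, where replicates 2 and 3 lay between -0.26 and 0.18.

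Between strains, few genes of the set differed after PBS. In each subset 2 of 26 did, both lower in NOD. Of all genes 3.62% were called in CD8+ cDC (2.03% higher and 1.59% lower in NOD) and 5.59% in CD11b+ cDC (2.41% higher, 3.18% lower). Pfkp, the platelet-type phosphofructokinase gene, was lower in NOD, with differences of -0.82 ± 0.16 in CD8+ cDC (limma adjusted p = 0.00339) and -1.02 ± 0.16 in CD11b+ cDC (0.000216). The arrays listed above for Pfkp show no overlap between strains after PBS in either subset, and neither call ended without any 1 array. Tkt differed by -0.72 ± 0.19 (0.029), at 8.10, 8.40 and 8.46 in NOD against 8.96, 9.11 and 9.06 in B6 CD8+ cDC. In CD11b+ cDC it differed by -0.67 ± 0.19 (0.0351), at 8.66, 8.53 and 8.77 against 9.42, 9.28 and 9.25. The Tkt groups did not overlap, but the calls were weak: in CD8+ cDC leaving out any of 5 arrays (adjusted p = 0.0615 to 0.181) and in CD11b+ cDC any of 6 (0.0557 to 0.146) ended them. Pdk1 read -0.58 ± 0.17 in NOD CD8+ cDC (0.0544), and passed with the replicate number as a block (0.0447). Same-numbered arrays deviated together in that comparison.

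Red pulp macrophage markers were also lower in NOD CD11b+ cDC after PBS, 5 of 9 tested with a median of -1.25 over the list, and B cell markers were higher in NOD CD8+ cDC, 2 of 5 with a median of 1.38. Of all genes 3.18% were lower in NOD in the former comparison and 2.03% higher in the latter. The part of these markers in the strain differences of Pfkp and Tkt was not tested.

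After CpG, 6 of 26 genes differed between strains in CD11b+ cDC, 3 higher and 3 lower in NOD, near the 23.2% of all genes (13.9% higher, 9.22% lower). Pfkp read 6.73, 6.78 and 6.62 in NOD against 8.41, 8.73 and 8.16 in B6, and Slc2a3 7.84, 8.26 and 7.94 against 6.65, 6.95 and 7.04. Neither pair overlapped. Pfkp differed by -1.72 ± 0.16 (3.29-fold, adjusted p = 5.11e-08) and Slc2a3 by 1.14 ± 0.15 (2.20-fold, 4.14e-06). Pdk3 (0.61 ± 0.11, 0.000198) and Taldo1 (0.73 ± 0.21, 0.013) were higher in NOD, and Pfkfb3 (-0.72 ± 0.20, 0.00978) and Slc16a3 (-0.40 ± 0.12, 0.0166) lower. Taldo1 lost its call without CpG replicate 2 of B6 (0.59, 0.0733) or NOD (0.61, 0.0777), Slc16a3 without CpG replicate 1 of B6 (-0.33, 0.0952) or 2 of NOD (-0.32, 0.105), and Pfkfb3 without CpG replicate 2 of NOD (-0.64, 0.0517). NK markers were lower in NOD here for 11 of 12, with a median of -3.71, and their part in these strain differences was not tested. For Pfkp a difference in the same direction stood after PBS, where 6 of 12 NK markers were lower with a median of -1.16.

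In CD8+ cDC after CpG 5 genes differed between strains, again near the 20.2% of all genes (12.4% higher, 7.84% lower). Slc2a3 (0.49 ± 0.15, adjusted p = 0.0223), Hk3 (0.56 ± 0.17, 0.0257), Pkm (0.35 ± 0.11, 0.0276) and Ldha (0.52 ± 0.16, 0.0271) were higher in NOD, and Slc16a3 lower (-0.35 ± 0.12, 0.0424). Each of these calls ended on leaving out single arrays: Slc2a3 and Ldha without CpG replicate 1 or 2 of B6 or 2 or 3 of NOD (0.39 to 0.46 and 0.32 to 0.48), Pkm without the same 4 (0.26 to 0.36), Hk3 without replicate 2 of B6 (0.50) or 3 of NOD (0.41), and Slc16a3 without any of 5 arrays (-0.38 to -0.27). A fit of these 2 groups alone called none of the set and 390 of all genes. By its dimmer probe set, tried after seeing the data, Hk1 was lower in NOD in the fit of all groups (-0.41, limma adjusted p = 0.0369). Median centring, which lowers each difference here by 0.12, gave 2 higher and 3 lower, beside 936 and 1452 of all genes. Quantile normalization gave 4 higher and 3 lower, beside 1364 and 966. With the replicate number as a block 8 were called, beside 2780 of all genes, with Pfkp (-0.46, 0.0454), Pgk1 (0.39, 0.0186) and Hif1a (-0.30, 0.0351) added. Same-numbered arrays deviated together in this comparison. Between 0 (without CpG replicate 2 of B6) and 13 (without CpG replicate 1 of NOD) were called when 1 array was left out. In the latter case 12 were higher in NOD, with a median over the set of 0.31 beside 0.07 over all genes. Of all genes 35.1% were called, and their split by direction was not counted. Taldo1 (0.81, 0.000448), Aldoc (0.81, 0.00272), Pgk1 (0.59, 0.00417) and Tpi1 (0.52, 0.00727) were among the genes of the set added. Markers of plasmacytoid dendritic cells, 3 of 6, and of B cells, 2 of 5, were higher in NOD in this comparison, and their part in it was not tested.

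**Figure D5:**
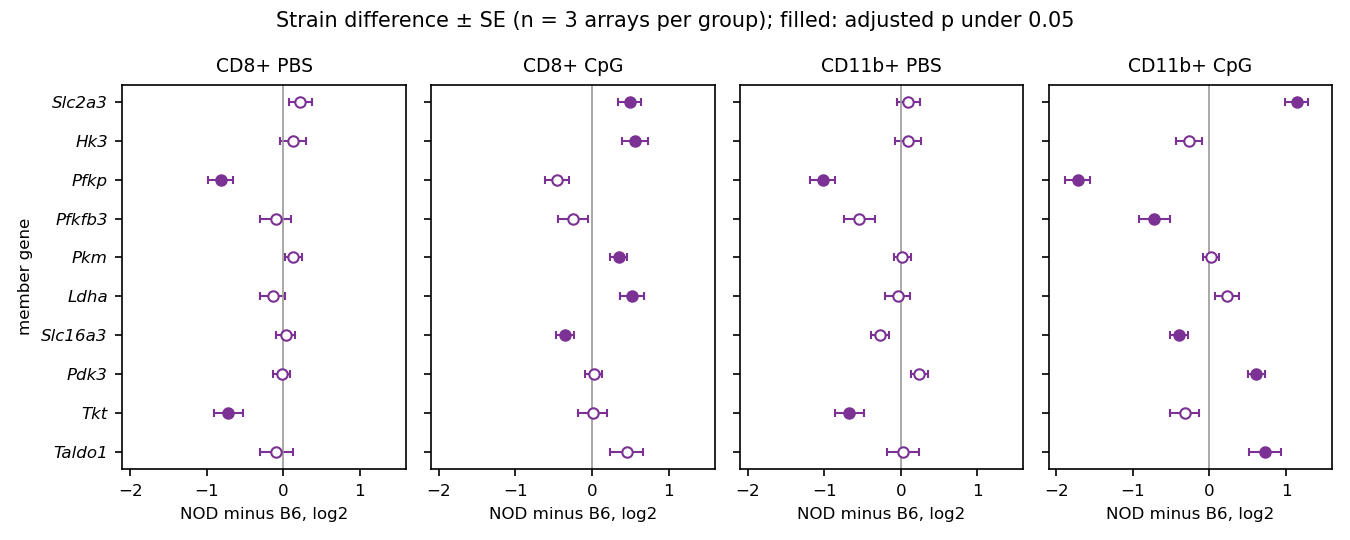
NOD minus B6 difference (log2, horizontal axes) ± standard error for the 10 genes called in any strain comparison by the probe sets that the rule picks (vertical axis). The 4 panels are split by subset and injection, and filled points had adjusted p under 0.05 in limma with n = 3 arrays per group. Pfkp lay between -1.72 and -0.46 in all 4 panels, and Slc2a3 reached 1.14 in CD11b+ cDC after CpG.

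After PBS 11 of 26 genes differed between CD8+ and CD11b+ cDC of B6 mice, with 7 at a higher level in CD8+ cDC, where 21.7% of all genes were called (9.57% higher, 12.2% lower). In NOD 12 differed, with 8 at a higher level, beside 21.8% of all genes (10.6% higher, 11.2% lower). The 11 genes called in B6 were also called in NOD, and Pgam1 was added there (0.67 ± 0.19). With the replicate number as a block, Pgam1 (0.51, 0.0119) and Ldha (0.43, 0.0348) were called in B6 too, and Hk2 (-0.45, 0.0173) in NOD. Same-numbered arrays deviated together in both comparisons, with correlations of 0.105 to 0.277. Higher in CD8+ cDC were Hk3 (1.86 ± 0.17 in B6 and 1.88 ± 0.17 in NOD, limma adjusted p = 1.41e-08 and 1.1e-08), Pfkp (1.32 ± 0.16 and 1.52 ± 0.16), Eno2 (1.06 ± 0.24 and 1.55 ± 0.24), Pgk1 (0.92 ± 0.16 and 1.03 ± 0.16) and Aldoc (0.90 ± 0.24 and 1.08 ± 0.24). Pfkfb3 (0.69 ± 0.20 and 1.13 ± 0.20) and Aldoa (0.47 ± 0.15 and 0.67 ± 0.15) were higher too.

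Lower in CD8+ cDC was the glucose transporter gene Slc2a3, at -1.75 ± 0.15 in B6 (3.37-fold, adjusted p = 2.95e-09) and -1.64 ± 0.15 in NOD (7.95e-09), with arrays at 6.49 to 7.02 in CD8+ and 8.32 to 8.62 in CD11b+ cDC. Pfkfb4 (-0.82 ± 0.17 and -0.69 ± 0.17), the lactate exporter gene Slc16a3 (-0.71 ± 0.12 and -0.41 ± 0.12) and Pdk3 (-0.38 ± 0.11 and -0.64 ± 0.11) were lower as well. In B6 single arrays ended the calls of Aldoa (0.38 to 0.47, adjusted p = 0.0598 to 0.118), Pfkfb3 (0.51 and 0.57; 0.102 and 0.0826), Aldoc without CD8+ replicate 3 (0.74, 0.056) and Pdk3 without the same array (-0.35, 0.0571). In NOD they ended those of Pgam1 (0.60 to 0.61, 0.0544 to 0.0589) and Slc16a3 (-0.36 and -0.32, 0.0693 and 0.0975). By the dimmer probe set, Hk1 was lower in B6 CD8+ cDC (-0.66 ± 0.13, 0.000657), and by the brighter one it was not called.

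After CpG the subsets differed for 8 genes of B6, with 3 at a higher level in CD8+ cDC and 5 at a lower. One of the 3 is Hk1 by its brighter probe set (0.27, adjusted p = 0.0498), which lost the call under 4 other settings and without any of 16 arrays, and which the dimmer one reverses (-0.89). The counts stand beside 37.4% of all genes (12.8% higher, 24.5% lower). In NOD 13 differed, split into 7 and 6, beside 38.6% (14.5% higher, 24.1% lower). Without CpG replicate 1 of NOD CD8+ cDC the split became 10 and 3, beside 30.5% of all genes, whose split by direction was not counted. Pdk3 (-0.29, adjusted p = 0.0619), Dlat (-0.34, 0.0921) and Taldo1 (-0.24, 0.284) were lost, and Tpi1 (0.52, 0.00757), Pgam1 (0.54, 0.00829) and Pgd (0.38, 0.049) gained. With the replicate number as a block, Hk2 (-0.45, 0.0118) and Pfkfb3 (0.47, 0.0079) were also called in B6, and Hk2 (-0.37, 0.0335) and Tkt (-0.46, 0.0251) in NOD. Same-numbered arrays deviated together in both comparisons. The array median over the genes tested differed by -0.17 in B6 and -0.14 in NOD, and median centring raises each difference by as much. It turned the splits to 6 and 5 in B6, beside 2467 higher and 1841 lower of all genes. In NOD they became 10 and 4, beside 2414 and 1930. Quantile normalization turned the split of B6 to 5 and 5, beside 1623 and 2616 of all genes. Eno2 was 1.90 ± 0.24 higher in CD8+ cDC in B6 and 1.94 ± 0.24 in NOD (adjusted p = 1.77e-06 and 1.04e-06), and Pgk1 0.71 ± 0.16 and 1.20 ± 0.16. Slc2a3 was lower, at -0.98 ± 0.15 and -1.63 ± 0.15, and Pfkfb4 at -0.74 ± 0.17 and -0.88 ± 0.17. Hk3, 1.08 ± 0.17 higher in NOD CD8+ cDC, was not called in B6 (0.25 ± 0.17), and Pfkp, 1.66 ± 0.16 higher in NOD, read 0.40 ± 0.16 in B6 (0.0595). In B6 Tkt (-0.78 ± 0.19, 0.00206), Slc2a1 (-0.69 ± 0.19, 0.00667) and Pkm (-0.49 ± 0.11, 0.0013) were lower in CD8+ cDC. All 12 NK markers were lower in CD8+ than CD11b+ cDC of CpG-treated B6 mice, with a median of -3.71, as were 8 of 9 proliferation markers, with a median of -0.70. Their part in the B6 differences after CpG was not tested.

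Other genes of the same pathways, from 4 lists chosen by function, also held rises and falls. Of 18 tested genes in the rest of glycolysis and sugar entry, CpG raised 2 and lowered 10 in B6 CD8+ cDC, raised 4 and lowered 6 in NOD CD8+, raised 2 and lowered 7 in B6 CD11b+, and raised 1 and lowered 2 in NOD CD11b+ cDC. The share lowered was 55.6%, 33.3%, 38.9% and 11.1%, beside 36.6%, 25.5%, 23% and 5.73% of all genes. Of all genes 21.1%, 15.1%, 15.9% and 9.7% were raised. The hexose transporter gene Slc2a6 rose in all 4 (1.83, 1.88, 1.09 and 1.32, in the same order), opposite to Slc2a3. Txnip, whose product restrains glucose uptake, fell in 3 (-1.64, -1.23 and -1.53; -0.45 in NOD CD11b+ cDC, adjusted p = 0.0725). Eno3, the muscle-type enolase gene, rose in NOD CD8+ cDC (0.82) and fell in B6 CD11b+ cDC (-0.74).

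In the rest of the pentose phosphate pathway and NADPH use, 15 genes were tested, with 5 up and 6 down, 4 and 4, 2 and 3, and 2 and 0 in the 4 comparisons. In B6 CD8+ cDC the 33.3% up and 40% down stand beside 21.1% and 36.6% of all genes, and in B6 CD11b+ cDC the 13.3% and 20% beside 15.9% and 23%. Of all genes 15.1% rose and 25.5% fell in NOD CD8+ cDC, and 9.7% and 5.73% in NOD CD11b+ cDC. Idh1, the cytosolic isocitrate dehydrogenase gene, rose in B6 CD8+ (1.70), NOD CD8+ (1.34) and NOD CD11b+ cDC (0.65). Ncf4, a subunit gene of the phagocyte NADPH oxidase, fell in B6 CD8+ (-1.81), NOD CD8+ (-1.18) and B6 CD11b+ cDC (-1.03). Pgls, whose enzyme acts after G6pdx in the oxidative branch, fell in the same 3 (-1.12, -0.56 and -0.75).

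Genes of pyruvate entry and the tricarboxylic acid cycle had more falls than rises in 3 of the 4 comparisons: of 28 tested, 18 fell and 3 rose in B6 CD8+ cDC, 13 fell and 1 rose in NOD CD8+, 12 fell and 3 rose in B6 CD11b+, and 1 was called in NOD CD11b+ cDC, a rise. The share that fell was 64.3%, 46.4% and 42.9% in the first 3, beside the 36.6%, 25.5% and 23% of all genes. In NOD CD11b+ cDC 5.73% of all genes fell. Of all genes 21.1%, 15.1%, 15.9% and 9.7% rose in the 4 comparisons. The list's medians were -0.52, -0.34, -0.24 and -0.10, beside -0.10, -0.08, -0.07 and -0.04 over all genes. The mitochondrial isocitrate dehydrogenase gene Idh2 (-1.96, -0.76 and -1.37) and the fumarase gene Fh1 (-1.72, -1.05 and -1.09) fell in B6 CD8+, NOD CD8+ and B6 CD11b+ cDC. Pdk2, another pyruvate dehydrogenase kinase gene, fell in the same 3 (-1.29, -0.94 and -0.94), as Pdk1 did. Acod1, whose enzyme makes itaconate, rose by 0.96 in B6 CD8+ and by 1.98 in B6 CD11b+ cDC.

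HIF-1 controllers and targets outside glycolysis went both ways as well, with 7 up and 5 down of 19 in B6 CD8+ cDC, 3 and 7 in NOD CD8+, 3 and 6 in B6 CD11b+, and 1 and 2 in NOD CD11b+ cDC. The share up was 36.8%, 15.8%, 15.8% and 5.26%, beside 21.1%, 15.1%, 15.9% and 9.7% of all genes, and the share down 26.3%, 36.8%, 31.6% and 10.5%, beside 36.6%, 25.5%, 23% and 5.73%. Ndrg1, a hypoxia-inducible gene, rose in all 4 (2.05, 2.15, 1.30 and 0.93). Egln1, which encodes the prolyl hydroxylase that marks HIF-1 for breakdown, fell in all 4 (-1.31, -0.77, -0.86 and -0.59). Bnip3l, a mitophagy receptor gene and HIF-1 target, fell in 3 (-1.21, -0.99 and -1.07; -0.20 in NOD CD11b+ cDC).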

How the data were processed

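Per the submitters' processing notes, the authors ran RMA in Partek (versions not given in the sources used here), and the deposited file holds the resulting log2 values of 24 arrays. They were used as deposited, without further normalization. Probe sets were named through the platform annotation, with symbols updated by gene ID, and only those with a single symbol were used. The probe set identifiers fit a whole-transcript gene array, while the labels name a different mouse array, so which was hybridised is unsettled. Genes above the array's median on at least 3 of 24 arrays were tested (11228 of 19938). Array medians ran from 5.79 to 5.87, and precision rests on 3 arrays per group.

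In R 4.3.3 (data.table package, version 1.17.8), limma 3.58.1 fitted 8 group means (16 residual degrees of freedom) and tested 16 contrasts, 12 between groups and 4 interactions, two-sided by eBayes with trend. P-values were adjusted by Benjamini-Hochberg over all genes of a contrast, with a threshold of 0.05. The fit was tested on simulated data. The members, the lists, the motifs and the tests were chosen with earlier results of these data known. All 32 members may be named. Of each other pathway list up to 4 called genes with the largest change per CpG comparison, and up to 2 uncalled with the highest mean, may be named, as may Cd8a, Xcr1, Itgam, Clec4a4 and Itgax, and up to 4 called genes of each list of another cell type.

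Alternatives were no filter on dim genes, a filter at 12 arrays, averaging a gene's probe sets, quantile normalization, median centring, eBayes without trend, robust eBayes, fitting the compared groups by themselves, blocking on the replicate number, and each array left out. Testing each other probe set alone, and leaving out Hk1, were chosen after seeing the data. Same-numbered arrays deviated together, with every pair's correlation over 0.1, in 8 of 12 group comparisons: CpG in both kinds of NOD cDC, the strains in CD8+ cDC and all 4 subset comparisons. No source says what a number marks, and differently numbered arrays were not compared in this way.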

Additional observations from a re-analysis of the deposited data

Results flagged for a closer look

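By the probe sets that the rule picks, responses to CpG differed between strains or subsets for 8 gene and comparison pairs. Each was called by limma's test of the difference itself. Between strains, the change of Slc2a3 in CD11b+ cDC was 1.03 higher in NOD than in B6 (adjusted p = 0.00439). Between subsets in B6, the change in CD8+ minus that in CD11b+ cDC was 0.77 for Slc2a3 (0.0156), -1.61 for Hk3 (8.92e-05), -0.92 for Pfkp (0.0107), -0.76 for Ldha (0.0299), 0.51 for Slc16a3 (0.0468) and 0.61 for Pdk3 (0.00948). In NOD it was -0.80 for Hk3 (0.0482). Groups of 3 arrays were not tested for single arrays far from the others.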

How the results depend on the processing

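Of 118 calls of a gene in a comparison, the filter at 12 arrays kept 118, robust eBayes 117, eBayes without trend 116, the mean of probe sets 116, quantile normalization 112, no filter 110, median centring 105 and a fit of only the groups compared 103. Sign changes of called values were limited to Hk1 under these settings. With the mean of its probe sets, its CpG difference was 0.43 in B6 CD8+, 0.47 in B6 CD11b+ and 0.41 in NOD CD11b+ cDC, and the subset difference after CpG -0.31 in B6 and -0.39 in NOD. With the dimmer probe set alone, tried after seeing the data, these were 1.04, 1.26, 1.01, -0.89 and -0.97, the subset difference in B6 after PBS -0.66, the strain difference in CD8+ cDC after CpG -0.41, the strain interaction in CD8+ cDC -0.72 and the subset interaction in NOD -0.68. The replicate block kept all 118 calls and added 16. It moved the count for strains in CD8+ cDC after CpG from 5 to 8, and no other count by over 1.5 times.

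The count of the subset interaction in NOD fell from 1 to 0 with no filter, quantile normalization, median centring, eBayes without trend or only the groups compared. The strain interaction in CD11b+ cDC went from 1 to 2 with quantile normalization, median centring or only the groups compared, and that in CD8+ cDC from 0 to 1 with median centring. With only the groups compared, CpG in NOD CD8+ cDC had 7 calls, strains in CD8+ cDC 4 after PBS and 0 after CpG, subsets in NOD after CpG 8 and the subset interaction in B6 10. The causes were not tested.

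Leaving out 1 array gave 18 to 20 calls for CpG in B6 CD8+ cDC, 8 to 13 in NOD CD8+, 9 to 13 in B6 CD11b+ and 4 to 10 in NOD CD11b+ cDC. For strains it gave 1 to 3 in CD8+ cDC after PBS and 0 to 13 after CpG, and 1 to 2 and 3 to 7 in CD11b+ cDC. For subsets it gave 8 to 13 (B6) and 11 to 15 (NOD) after PBS, and 7 to 12 and 10 to 14 after CpG. Interactions ranged from 0 to 7 and 1 to 3 (strain, CD8+ and CD11b+) and from 4 to 9 and 0 to 2 (subset, B6 and NOD). Signal near background limits Pfkm, Ldhb and Slc16a1.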
